A study of Mus musculus with 4 samples.

Results

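The expression of 10 genes that mark stromal fibroblasts and preadipocytes was followed in the inguinal mammary gland of mice lacking Mt1-mmp: Pdgfra, Twist2, Dpp4, Pi16, Clec3b, Dcn, Lum, Dpt, Fbln1 and Mfap5. They were chosen by name, and all 10 had at least 1 probe set assigned to a single gene, 14 probe sets in all, among 17097 genes on the array. The brightest probe set of each gene is given first, and all 10 had a mean over the arrays of at least 4.94 on the log2 scale, the median over all probe sets and the limit of brightness for testing. In total 11078 genes reached it.

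The study set global Mt1-mmp(-/-) mice against their Mt1-mmp(+/+) littermates. The colony was outbred Swiss Black and all mice were taken at postnatal day 10, with 2 arrays for each genotype called biological replicates. Mt1-mmp is listed on the array as Mmp14 and encodes a collagen-degrading protease anchored in the cell membrane. The knockout is carried by every cell of the animal, and intact gland was homogenised whole, so the arrays hold RNA of epithelium, fat pad, vessels, nerves and whatever neighbouring tissue was dissected with them. The labels do not give the sex of the mice or whether a sample pooled several animals, so p-values measure only the spread between these samples.

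Fibroblasts of the mammary fat pad lay down the collagens and proteoglycans through which the ducts grow, and part of them are precursors of fat cells. In mouse fat depots the cells that carry the receptor Pdgfra include progenitors marked by Dpp4 and Pi16, which sit in the connective tissue around vessels and between lobules, and more committed preadipocytes. Mmp14 is made largely by stromal cells of this kind and cleaves fibrillar collagen around them.

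Mmp14 itself had 5.83 and 5.68 in the knockout arrays, against 8.92 and 8.73 in the wild-type arrays, on the log2 scale of the deposited RMA values. That difference of -3.07 ± 0.12 (SE, n = 2 per group) is 8.40-fold and had a limma adjusted p of 0.0738. A dimmer Mmp14 probe set differed by -1.67, or 3.18-fold. The exons removed in the knockout are not stated, so the probe sets may or may not report on them. The 4 arrays had medians between 4.92 and 4.98.

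Both knockout arrays carried RNA of other tissues. Over 16 skeletal muscle genes the median difference from the wild-type mean was -0.86 in knockout replicate 1, compared with 5.77 in knockout replicate 2. Wild-type replicate 2 stood 1.64 above wild-type replicate 1. Over 15 epidermis and hair follicle genes the median was 2.27 in knockout replicate 1 and -0.32 in knockout replicate 2. Summed on a linear scale, the muscle genes came to 853 and 55870 in the knockout arrays and to 1320 and 4363 in the wild-type arrays, and the skin genes to 13080 and 953 in the knockout arrays and to 1255 and 3418 in the wild-type arrays. Muscle and skin have fibroblasts of their own, so results are given array by array. The part of these tissues in the results below was not tested.

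**Figure D1:**
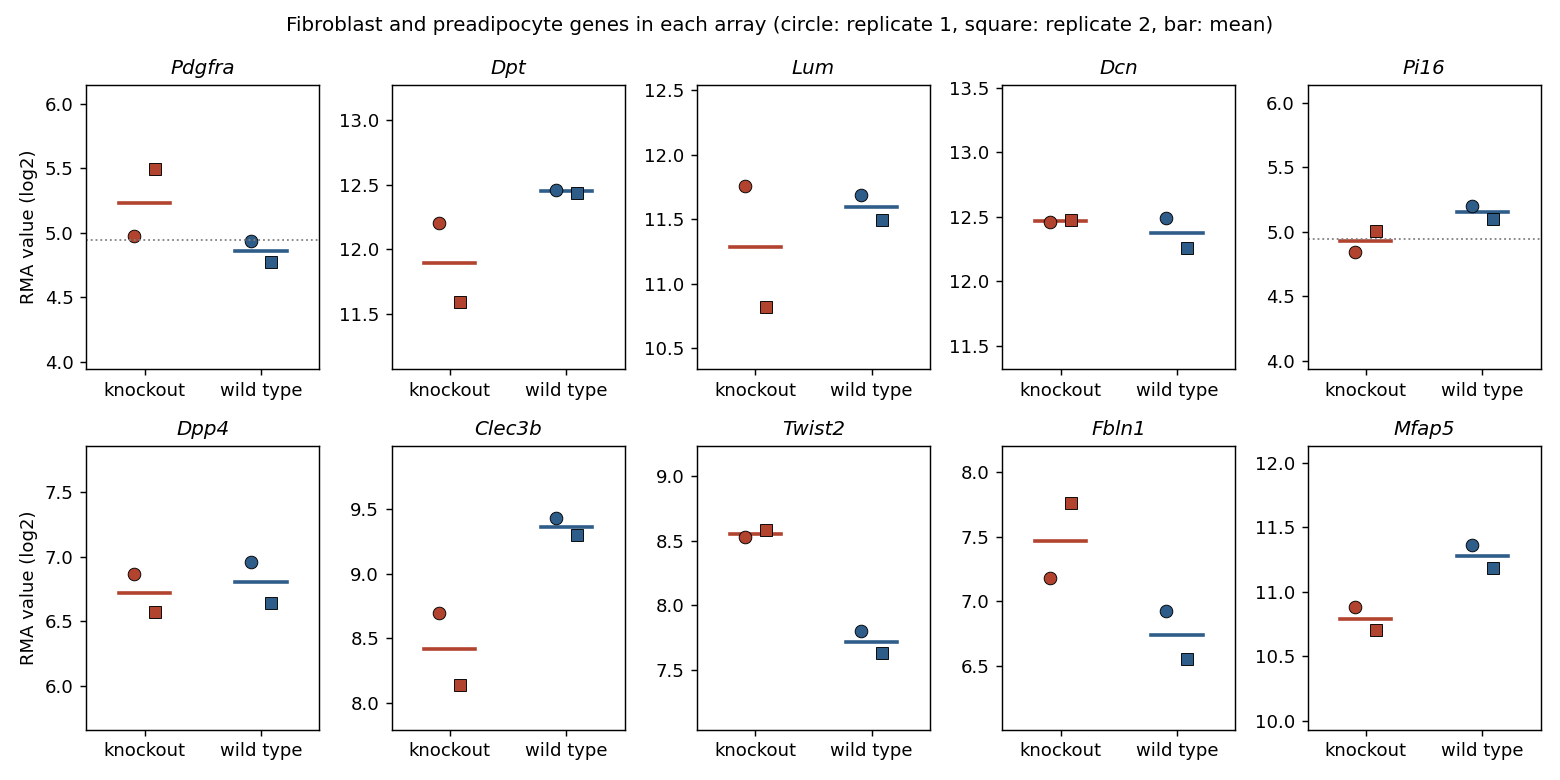
RMA value (log2) of each fibroblast and preadipocyte gene in the 2 knockout and 2 wild-type arrays, with circles for replicate 1, squares for replicate 2 and a bar at the group mean; every panel spans the same range of log2 units and the dotted line is the brightness limit of 4.94. Twist2 and Fbln1 lay higher in both knockout arrays, Clec3b, Dpt and Mfap5 lower in both, and Dcn and Dpp4 at overlapping levels.

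The 10 genes lay on both sides of the wild-type arrays. In 3 of them (Twist2, Fbln1 and Pdgfra) both knockout arrays lay above both wild-type arrays, and in 4 (Clec3b, Dpt, Mfap5 and Pi16) both lay below. In the remaining 3 (Dcn, Dpp4 and Lum) the genotypes overlapped. Over all 11078 tested genes, 26.3% lay above without overlap and 32.5% below, 58.8% together, so that 7 of 10 is near the background of these arrays. Knockout replicate 2 alone lay above both wild-type arrays in 3 members and below them in 6, beside 38.7% and 50.8% of all genes. Knockout replicate 1 alone did so in 4 and 4, beside 43.2% and 43.7%. Against wild-type replicate 1 alone the knockout pair lay above in 3 and below in 6 (32.4% and 38.5% of all genes), and against wild-type replicate 2 alone above in 4 and below in 4 (32% and 38.4%). The median difference over the 10 genes was -0.15, against -0.02 over all tested genes. That median was 0.07 without knockout replicate 2 and -0.19 without knockout replicate 1, and its SD between replicates was 0.157, so its direction is not settled.

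No member passed the threshold of an adjusted p under 0.05 in limma with Benjamini-Hochberg adjustment over all genes, where 0% of all tested genes passed. At an unadjusted limma p under 0.05 there were 4 members, Twist2 and Fbln1 higher and Clec3b and Mfap5 lower, where 9.69% of all tested genes reached it upward and 12.1% downward, 21.8% together. None of the 10 differed by as much as 2-fold in the mean, a size that 1.98% of all genes reached upward and 2.31% downward. The count of members that passed depended on the knockout arrays. Without knockout replicate 1, 7 passed, namely Twist2, Fbln1 and Pdgfra higher and Clec3b, Dpt, Lum and Mfap5 lower, but so did 37.7% of all genes (13.1% higher, 24.6% lower). Without knockout replicate 2 there were 2, Twist2 higher and Clec3b lower, beside 11.7% of all genes (6.73% higher, 4.99% lower). Such a fit takes the spread of the remaining knockout array from the 2 wild-type arrays. In whole tissue, fewer cells of a type and less RNA per cell cannot be told apart.

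**Figure D2:**
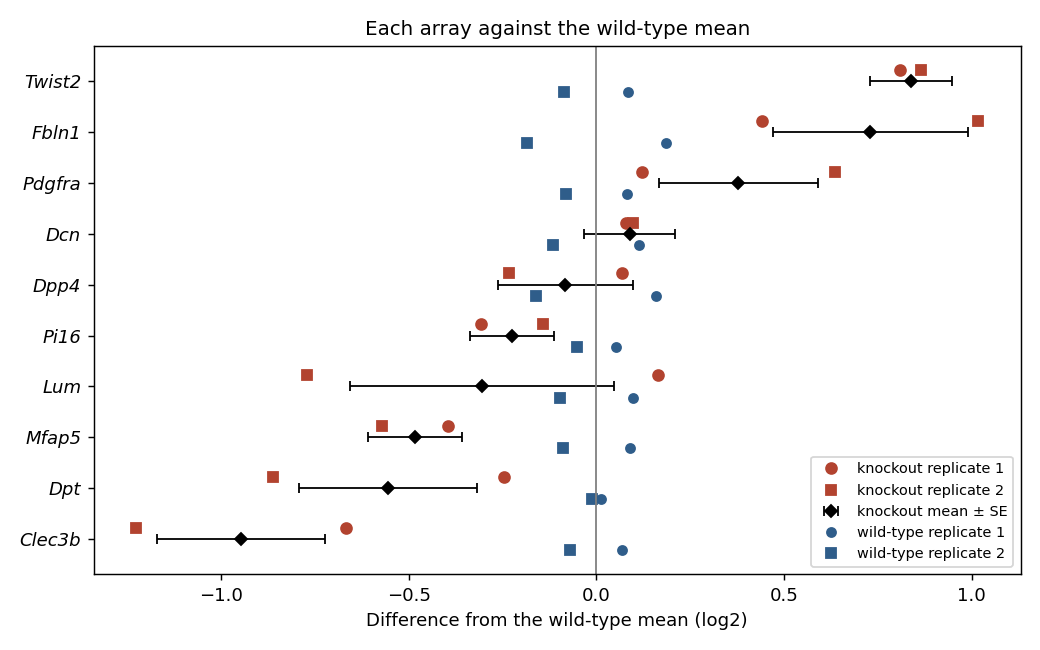
Difference of each array from the wild-type mean (log2, horizontal axis) for the 10 genes, ordered by the knockout mean (black diamond, with limma's standard error, n = 2 per group); red marks are knockout arrays and blue marks wild-type arrays. The knockout marks of Twist2 lie close together at 0.81 and 0.87, while those of Lum lie at 0.16 and -0.77, on either side of the wild-type pair.

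Twist2, which encodes a basic helix-loop-helix transcription factor of mesenchymal cells, had 8.53 and 8.58 in the knockout arrays, against 7.80 and 7.63 in the wild-type arrays. The knockout arrays lay closer to each other than the wild-type arrays did, and well above them. The difference was 0.84 ± 0.11 (SE, n = 2 per group), or 1.79-fold. Limma gave it the smallest p among the 10 genes, 0.00166 before adjustment and an adjusted p of 0.105. The difference was 0.87 without knockout replicate 1, the array rich in skin RNA, and 0.81 without knockout replicate 2, the array rich in muscle RNA. Of all tested genes, 6.39% differed by at least this much in either direction. Its paralog Twist1 had 7.19 and 7.09 in the knockout arrays and 7.36 and 7.37 in the wild-type arrays, a difference of -0.22 ± 0.10 (SE, n = 2 per group; limma adjusted p = 0.283).

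Pdgfra encodes the alpha receptor for platelet-derived growth factors, the most used surface marker of fibroblasts and fat cell progenitors. Its single probe set was dim, with 4.98 and 5.49 in the knockout arrays, against 4.94 and 4.77 in the wild-type arrays. Knockout replicate 1 was only 0.04 above wild-type replicate 1, and knockout replicate 2 stood apart from the other 3. The difference of 0.38 ± 0.21 (SE, n = 2 per group) had a limma adjusted p of 0.370, and it was 0.64 without knockout replicate 1 and 0.12 without knockout replicate 2. Its values straddle the brightness limit of 4.94, and RMA narrows differences between values that low.

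Of the surface and secreted markers of progenitors and connective tissue, the genotypes overlapped for Dpp4 and lay apart, lower in the knockout, for Pi16 and Clec3b. Dpp4, a membrane peptidase, had 6.87 and 6.57 in the knockout arrays, against 6.96 and 6.64 in the wild-type arrays, and the genotypes overlapped. The difference was -0.08 ± 0.18 (SE, n = 2 per group; limma adjusted p = 0.807), and it was 0.07 without knockout replicate 2 and 0.08 without wild-type replicate 1. A second Dpp4 probe set had 4.16 and 4.40 in the knockout arrays and 4.23 and 4.07 in the wild-type arrays, all below the brightness limit.

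Pi16, which encodes peptidase inhibitor 16 and marks the same progenitors, had 4.84 and 5.01 in the knockout arrays, against 5.20 and 5.10 in the wild-type arrays. Both knockout arrays lay below both wild-type arrays, by little, and the values lie at the brightness limit. The difference was -0.22 ± 0.11 (SE, n = 2 per group; limma adjusted p = 0.331), and -0.14 without knockout replicate 1.

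Clec3b, which encodes tetranectin, a secreted plasminogen-binding lectin, had the largest difference of the 10. It had 8.70 and 8.14 in the knockout arrays, against 9.43 and 9.30 in the wild-type arrays. The genotypes were clearly apart, with the muscle-rich knockout replicate 2 the lowest. The difference was -0.95 ± 0.22 (SE, n = 2 per group), or 1.93-fold. Its limma p was 0.0137 before adjustment and the adjusted p was 0.155. The value was -0.67 without knockout replicate 2 and -1.23 without knockout replicate 1, and 4.89% of all tested genes differed by at least as much as Clec3b did in the mean.

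Among the matrix components, the genotypes overlapped for Dcn and Lum and lay apart for Dpt. Dcn encodes decorin, a small leucine-rich proteoglycan that binds collagen fibrils, and had 12.46 and 12.48 in the knockout arrays, against 12.49 and 12.26 in the wild-type arrays. The knockout arrays differed by 0.02 and lay within the range of the wild-type pair. The difference was 0.09 ± 0.12 (SE, n = 2 per group; limma adjusted p = 0.691), and it was -0.03 without wild-type replicate 2.

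Lum encodes lumican, a proteoglycan of the same family, and is the next protein-coding gene after Dcn in the RefSeq order of chromosome 10. It had 11.76 and 10.82 in the knockout arrays, against 11.69 and 11.50 in the wild-type arrays. Knockout replicate 1 was the highest of the 4 arrays and knockout replicate 2 the lowest, a gap of 0.94. The difference of -0.30 ± 0.35 (SE, n = 2 per group; limma adjusted p = 0.638) therefore has no settled direction, and it was 0.16 without knockout replicate 2 and -0.77 without knockout replicate 1.

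Dpt encodes dermatopontin, a small matrix protein that binds decorin and helps collagen fibrils to form. It had 12.20 and 11.59 in the knockout arrays, against 12.46 and 12.44 in the wild-type arrays. The wild-type arrays were 0.02 apart and both knockout arrays lay below them, replicate 2 by more. The difference was -0.55 ± 0.24 (SE, n = 2 per group), or 1.47-fold, with an adjusted p of 0.280 in limma. It was -0.86 without knockout replicate 1 and -0.25 without knockout replicate 2.

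Fbln1 and Mfap5 belong to the elastic and microfibrillar matrix, and they lay on opposite sides of the wild-type arrays. Fbln1 encodes fibulin-1, a glycoprotein of basement membranes and elastic fibres. Its brightest probe set had 7.18 and 7.76 in the knockout arrays, against 6.93 and 6.55 in the wild-type arrays, a difference of 0.73 ± 0.26 (SE, n = 2 per group; limma adjusted p = 0.228). It was 1.02 without knockout replicate 1 and 0.44 without knockout replicate 2. A second probe set, with 6.26 and 6.65 in the knockout arrays and 6.05 and 5.87 in the wild-type arrays, also lay higher without overlap (0.50). The third had 5.42 and 5.79 in the knockout arrays, against 5.66 and 5.74 in the wild-type arrays. It overlapped and was lower in the mean (-0.10). So 2 of the 3 Fbln1 probe sets agree in direction, and which transcripts each detects was not analysed here.

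Mfap5 encodes a microfibril-associated glycoprotein that binds fibrillin. It had 10.88 and 10.70 in the knockout arrays, against 11.36 and 11.19 in the wild-type arrays. Each genotype's arrays were 0.18 apart, and the genotypes were separate. The difference was -0.48 ± 0.13 (SE, n = 2 per group; limma adjusted p = 0.169). The other Mfap5 probe set gave 9.97 and 9.78 in the knockout arrays, against 10.42 and 10.17 in the wild-type arrays, a similar difference of -0.42.

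The sequence just upstream of the gene start is shown for members that lay apart in opposite directions, so that their promoters can be compared. RefSeq windows of build GRCm38.p6 were held for 6 of the 10 genes, and the 250 bases before the start are shown for Twist2 and Fbln1, higher in the knockout, and Dpt, lower. Twist2 lies at chr1:91801211-91801460, Fbln1 (the later of its 2 listed starts) at chr15:85205758-85206007 and Dpt at chr1:164796413-164796662, all on the plus strand. Capitals mark matches on either strand to 3 motifs. The TATA box was searched as TATAAA. The CCAAT box was searched by its 5 letters. The E-box, the class of site that helix-loop-helix factors such as Twist2 bind, was searched as CANNTG. No matches overlapped in these windows.
Twist2: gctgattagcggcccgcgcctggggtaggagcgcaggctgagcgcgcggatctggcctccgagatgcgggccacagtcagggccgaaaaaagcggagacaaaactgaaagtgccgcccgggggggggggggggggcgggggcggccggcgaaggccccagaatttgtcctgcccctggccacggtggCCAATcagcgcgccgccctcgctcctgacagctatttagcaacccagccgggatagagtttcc
Fbln1: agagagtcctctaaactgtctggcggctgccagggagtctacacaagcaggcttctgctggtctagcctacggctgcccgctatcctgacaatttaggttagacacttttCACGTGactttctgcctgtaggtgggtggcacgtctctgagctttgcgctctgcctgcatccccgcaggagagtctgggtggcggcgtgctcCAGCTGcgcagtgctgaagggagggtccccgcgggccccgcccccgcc
Dpt: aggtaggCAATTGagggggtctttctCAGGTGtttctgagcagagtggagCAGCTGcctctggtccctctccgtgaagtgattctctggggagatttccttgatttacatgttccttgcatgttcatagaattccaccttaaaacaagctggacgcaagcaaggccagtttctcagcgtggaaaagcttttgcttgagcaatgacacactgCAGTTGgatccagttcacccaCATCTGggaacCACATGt
The Twist2 window held 1 CCAAT box, from 63 to 59 bases before the start, and 0 E-boxes. The Fbln1 window held 2 E-boxes, and that of its earlier listed start, not shown, held 1. The Dpt window held 6 E-boxes, the nearest from 7 to 2 bases before the start. Of the windows not shown, that of Pdgfra, higher in the knockout, held 1 E-box. That of Pi16, lower, held 0 E-boxes and 1 CCAAT box, from 64 to 60 bases before the start. The window of Dpp4, whose genotypes overlapped, held 1 E-box and 1 TATA box. Among all 32851 windows of that length 66.2% held an E-box, 33.9% a CCAAT box and 12.4% a TATA box, and 0.27% held at least 6 E-boxes, with a median of 1. A match describes letters only and does not show that a factor binds there.

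Genes of related function were read from 6 lists with 86 genes, of which 80 were on the array and 75 were tested. Both knockout arrays lay below both wild-type arrays in 38 of the 75 and above in 11, where the background is 32.5% and 26.3%. None passed in limma at an adjusted p under 0.05, and at an unadjusted p under 0.05 there were 18 lower and 5 higher, where the background is 12.1% and 9.69%. Up to 4 genes of each list are named below, those with the smallest p, so that their separation follows from the choice. Over the 75 tested related genes the median difference was -0.22, against -0.02 over all tested genes. The lists were written with earlier results of these data known.

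**Figure D3:**
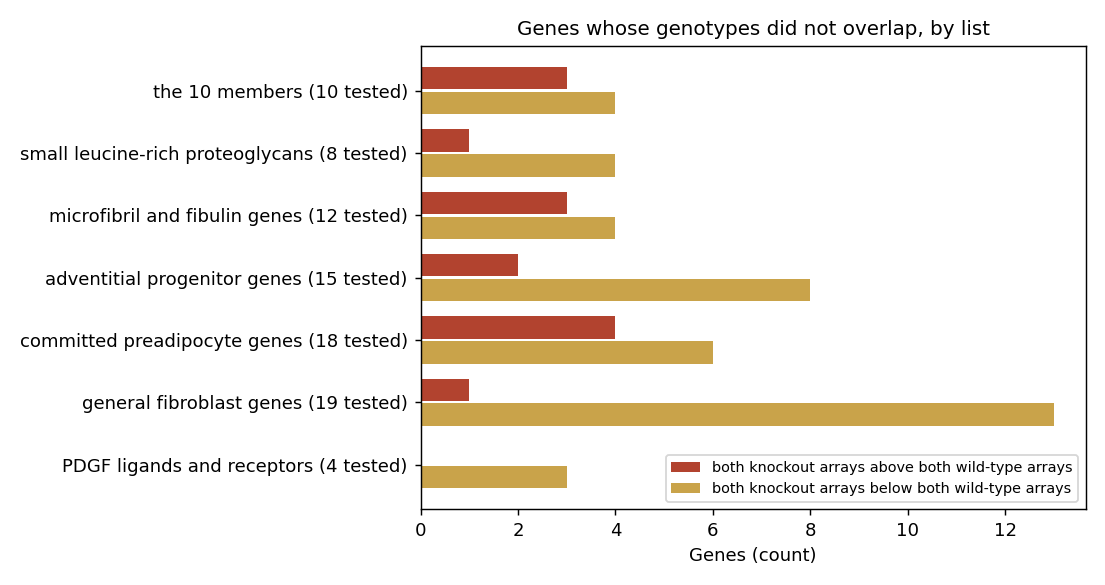
Number of genes (horizontal axis) in each list whose 2 knockout arrays lay entirely above (red) or entirely below (ochre) the 2 wild-type arrays, with the number tested in brackets. The 10 members split 3 above and 4 below, whereas general fibroblast genes split 1 above and 13 below.

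Among other small leucine-rich proteoglycans, 4 of 8 tested genes were lower without overlap and 1 was higher, with a median of -0.20. The shares over all tested genes were 32.5% and 26.3%. At an unadjusted limma p under 0.05 there were 3 lower and 1 higher, where the background is 12.1% and 9.69%. Ogn, which encodes osteoglycin, had 9.88 and 9.44 in the knockout arrays, against 10.94 and 10.70 in the wild-type arrays (-1.16 ± 0.20, SE, n = 2 per group), and its other probe set differed by -1.49. Prelp, which anchors basement membranes to connective tissue, had 9.11 and 9.48 in the knockout arrays, against 10.20 and 10.31 in the wild-type arrays (-0.96 ± 0.16). The dim Ecm2 differed by -0.32, and podocan, Podn, was the one that lay higher, by 0.68 ± 0.24. Decorin's family thus held genes on either side of it. Limma adjusted p-values of these 4 ran from 0.120 to 0.221.

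Microfibril and fibulin genes were also mixed, with 4 of 12 lower and 3 higher without overlap and a median of 0.10. Those counts are near the shares over all tested genes, 32.5% lower and 26.3% higher. At an unadjusted limma p under 0.05 there were 2 lower and 1 higher, where the background is 12.1% and 9.69%. Efemp1, which encodes fibulin-3, had 10.94 and 10.71 in the knockout arrays, against 10.47 and 10.21 in the wild-type arrays (0.49 ± 0.15, SE, n = 2 per group). Ltbp1, which holds latent TGF beta in the matrix, differed by 0.38 ± 0.16. The other Ltbp1 probe sets, below the brightness limit, differed by -0.05 and -0.04. Ltbp2 (-0.33 ± 0.10) and Emilin1 (-0.40 ± 0.13), both of elastic fibres, were lower. As with Fbln1 and Mfap5, these 4 genes lay on either side, and their limma adjusted p-values ran from 0.189 to 0.275.

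Adventitial progenitor genes, the class to which Dpp4 and Pi16 belong, were lower without overlap in 8 of 15 and higher in 2, with a median of -0.38. The shares over all tested genes were 32.5% and 26.3%. At an unadjusted limma p under 0.05 there were 7 lower and 1 higher, where the background is 12.1% and 9.69%. Ackr3, an atypical chemokine receptor, had 8.97 and 9.11 in the knockout arrays, against 10.07 and 9.96 in the wild-type arrays (-0.97 ± 0.11, SE, n = 2 per group; limma adjusted p = 0.102). The secreted guidance factor gene Sema3c differed by -0.74 ± 0.14, and Cd248, which encodes the stromal surface protein endosialin, by -0.63 ± 0.10. Smpd3, a sphingomyelinase gene, had 4.35 and 4.25 in the knockout arrays, against 6.48 and 7.46 in the wild-type arrays, but its knockout values lie below the brightness limit. Its other probe sets differed by -0.59 and -0.16. Limma adjusted p-values of the 4 genes ran from 0.102 to 0.136.

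Committed preadipocyte genes split, with 6 of 18 lower and 4 higher without overlap and a median of -0.13. Those counts are near the shares over all tested genes, 32.5% lower and 26.3% higher. At an unadjusted limma p under 0.05 there were 1 lower and 2 higher, where the background is 12.1% and 9.69%. Ggt5, a glutathione-processing enzyme, had 7.06 and 8.15 in the knockout arrays, against 5.97 and 5.94 in the wild-type arrays (1.64 ± 0.40, SE, n = 2 per group), and its dimmer probe set differed by 0.52. Apod, a lipid-carrying apolipoprotein, had 9.26 and 10.33 in the knockout arrays, against 8.47 and 8.49 in the wild-type arrays (1.31 ± 0.39). In both genes knockout replicate 2 was the higher, as it was for Fbln1 and Pdgfra. Cebpb, an early regulator of fat cell formation, was lower by similar amounts in each knockout array in its brightest probe set (-0.37 and -0.38 from the wild-type mean). A second Cebpb probe set had 8.33 and 7.92 in the knockout arrays, against 8.71 and 8.79 in the wild-type arrays. The third, below the brightness limit, differed by 0.03. Clec11a differed by -0.65 ± 0.25. Limma adjusted p-values of these 4 ran from 0.157 to 0.255.

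General fibroblast genes were lower without overlap in 13 of 19 and higher in 1, with a median of -0.26. The shares over all tested genes were 32.5% and 26.3%. At an unadjusted p under 0.05 only 2 of the 19 were lower and 0 higher, near the background of 12.1% and below that of 9.69%. Fap, a surface protease of activated fibroblasts, had 8.88 and 8.34 in the knockout arrays, against 9.57 and 9.46 in the wild-type arrays (-0.91 ± 0.22, SE, n = 2 per group). Thy1, a surface glycoprotein, had 8.49 and 7.31 in the knockout arrays, against 9.05 and 9.10 in the wild-type arrays (-1.18 ± 0.43). Col5a2, a chain of the collagen that starts fibrils, differed by -0.33 ± 0.12, and by -0.84 in its other probe set. The 3 adjusted p-values in limma were 0.157, 0.235 and 0.227. The list's median difference from the wild-type mean was -0.15 in knockout replicate 1 and -0.33 in knockout replicate 2.

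Of the PDGF system, whose alpha receptor is Pdgfra, 3 of the 4 tested genes, in a list of 5, were lower without overlap. The same 3 reached an unadjusted limma p under 0.05. Over all tested genes 32.5% were lower without overlap, and 12.1% were lower at that p. Pdgfc, a ligand of the alpha receptor, had 7.65 and 7.57 in the knockout arrays, against 8.22 and 8.22 in the wild-type arrays (-0.60 ± 0.09, SE, n = 2 per group), and -0.82 in its other probe set. Pdgfd, a ligand of the beta receptor, had 6.73 and 6.44 in the knockout arrays, against 7.67 and 7.63 in the wild-type arrays (-1.07 ± 0.14). Pdgfb differed by -0.90 ± 0.25. The beta receptor gene Pdgfrb overlapped (0.08 ± 0.18). The 3 ligand genes had limma adjusted p-values of 0.115, 0.105 and 0.180.

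The labelled tissue was read against markers of the other cells it could hold. No gene of these lists passed in limma at an adjusted p under 0.05, and over all genes 26.3% lay higher and 32.5% lower without overlap. Luminal epithelial genes had 7 of 10 higher without overlap and 0 lower, and basal epithelial genes 5 of 6 higher and 0 lower. The basal list's median difference from the wild-type mean was 0.90 in the skin-rich knockout replicate 1 and 0.33 in knockout replicate 2. The part of skin in it was not tested. Lymphatic endothelial genes had 3 of 3 tested genes higher, but Prox1 and Flt4 were below the brightness limit. Prox1 had 4.00 and 4.10 in the knockout arrays, against 4.02 and 4.01 in the wild-type arrays. Flt4 had 4.57 and 4.54, against 4.53 and 4.58. Brown and beige adipocyte genes had 6 of 8 lower and 0 higher, blood endothelial genes 6 of 10 lower and 0 higher, and macrophage genes 6 of 10 lower and 1 higher. White adipocyte genes split, with 3 of 8 lower and 2 higher, as did Schwann cell genes, with 1 of 5 lower and 3 higher. Pericyte and smooth muscle genes had 2 of 7 lower and 0 higher. An unadjusted limma p under 0.05 was reached by 9.69% of all genes upward and 12.1% downward. In these lists 1 luminal, 2 basal and 3 lymphatic genes were higher at that p, and 0 lower. Of brown and beige genes 6 were lower and of blood endothelial genes 3, with 0 higher. Macrophage genes had 3 lower and 1 higher, white adipocyte genes 2 lower and 1 higher, and Schwann cell genes 1 lower and 2 higher. Pericyte and smooth muscle genes had 2 lower and 0 higher, and epidermis and hair follicle genes 0 lower and 1 higher. The part of these cells in the fibroblast values was not tested.

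Lists of other connective tissues were mixed in brightness. Of the tendon genes 5 of 7 had means below the limit of 4.94, among them Scx, Tnmd and Mkx, but Thbs4, a matrix glycoprotein gene, had 5.95 and 6.93 in the knockout arrays, against 5.47 and 5.62 in the wild-type arrays. Summed levels of the tendon genes were 192 and 268 in the knockout arrays and 179 and 178 in the wild-type arrays. Of the dermal papilla and sheath genes 7 of 10 were below the limit, among them Corin and Sox2. Wif1, which encodes a Wnt inhibitor, had 6.23 in knockout replicate 1 and 4.41 in knockout replicate 2, against 4.27 and 4.34 in the wild-type arrays, and so stood out in the skin-rich array. The summed levels of that list, 1172 and 1124 in the knockout arrays and 1182 and 1147 in the wild-type arrays, are set mostly by Sox18 and Trps1, which are the brightest of it. Of the cartilage and bone genes 3 of 7 were below the limit, and the 4 above it, Bglap, Col9a1, Sp7 and Col2a1, had means from 5.26 to 7.15. That list summed to 550 and 445 in the knockout arrays and to 427 and 373 in the wild-type arrays. Of the mesothelial genes 5 of 6 were below the limit, Msln and Wt1 among them, and the list summed to 150 and 141 in the knockout arrays and to 131 and 135 in the wild-type arrays. The sums of the tendon, cartilage and bone, and mesothelial lists were higher in both knockout arrays than in both wild-type arrays, and those of the papilla list overlapped. Single genes weighed in the tendon and mesothelial sums, namely Thbs4 and Bnc1. The dim Bnc1 had 5.22 and 4.25 in the knockout arrays, against 3.97 and 4.35 in the wild-type arrays. The sums are therefore no measure of the lists as a whole. The part of these other tissues was not tested either.

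The bright members (Dcn, Dpt, Lum and Mfap5, each above 10 in all 4 arrays) show stromal RNA in every sample.

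**Figure D4:**
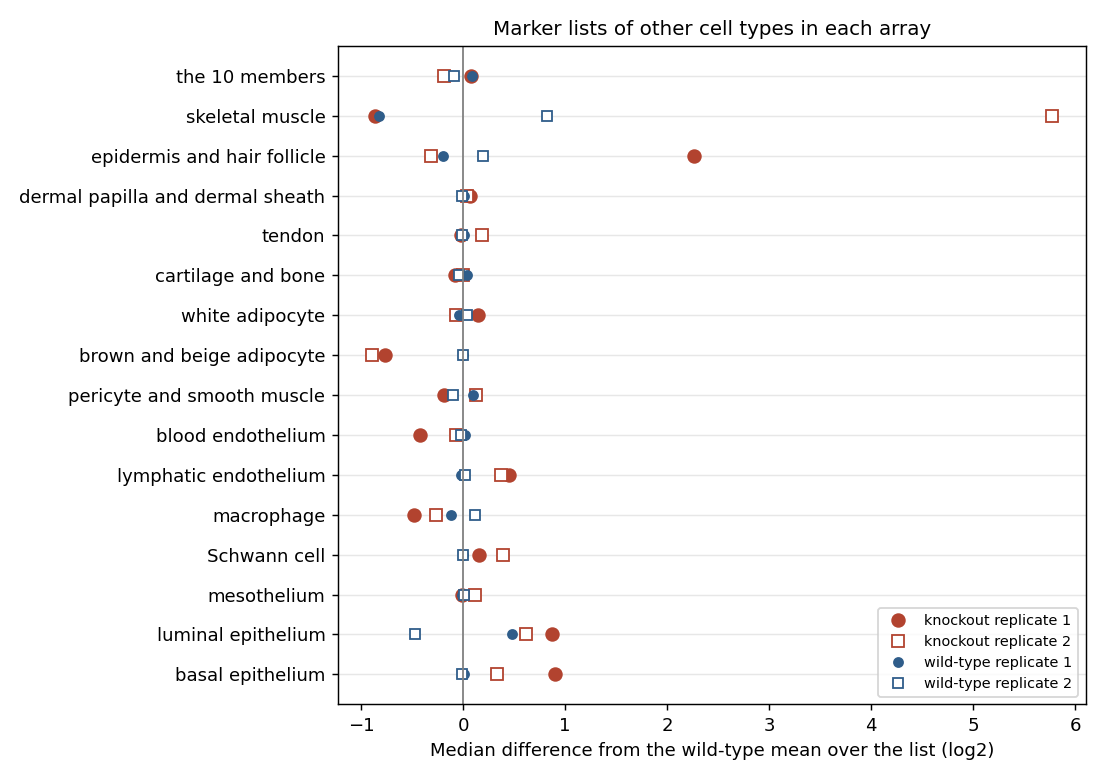
Median difference from the wild-type mean (log2, horizontal axis) over each marker list in each array, red for knockout and blue for wild type, filled circles for replicate 1 and open squares for replicate 2. Skin genes stand at 2.27 in knockout replicate 1 and muscle genes at 5.77 in knockout replicate 2, while the 10 members lie at 0.07 and -0.19 in the knockout arrays.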

How the data were processed

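RNA of 2 knockout and 2 wild-type inguinal mammary glands was labelled from the 3-prime end and hybridised to 4 Affymetrix mouse arrays, per the labels. Per the submitters' processing notes, the authors used the package affy and its RMA method, with versions not given in the sources used here. The deposited numbers are on a log2 scale, as judged from their range of 3.16 to 13.7. RMA normalises intensities between arrays, so that a shift shared by most genes may be removed, although the deposited columns were not identical in distribution (medians of 4.92 to 4.98), and values of different probe sets are not comparable levels. The number of arrays limits the precision.

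The table held 45141 probe sets. The array annotation gave 28898 of them a single gene, 551 several genes and 15692 none, and only single-gene probe sets were named. Of these 28689 matched RefSeq by gene identifier. Each of the 17097 genes was represented by its brightest probe set over all arrays, and the 11078 genes with a mean of at least 4.94, the median of all probe sets, were tested with limma 3.58.1 in R 4.3.3 (lmFit and eBayes, no covariate, Benjamini-Hochberg adjustment, threshold 0.05). The fit was tested on simulated data. The text names the 10 members, Mmp14 and up to 4 genes with the smallest p in each of 6 related lists, and markers of 15 other cell types were summarised. Single markers of other connective tissues and of lymphatic endothelium were named after their values were seen. Members and lists were chosen with earlier results of these data known. Alternatives covered the brightness filter, probe set choice, scaling, variance model, replicate block and each array left out.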

Additional observations from a re-analysis of the deposited data

How the results depend on the processing

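With 2 arrays for each genotype, the arrays chosen decided the calls. The number of genes past the threshold was 0 higher and 0 lower with all 4 arrays and under every alternative of filter, probe set, scaling, variance model and pairing. With single arrays left out it ran from 0 to 1455 higher and from 0 to 2725 lower, and the number of members past it from 0 to 7. The 4 left-out settings gave median member differences from -0.26 to 0.073, and only the one without knockout replicate 2 was above 0. The number of members whose genotypes did not overlap, an alternative added after seeing the data, ran from 3 to 4 higher and from 4 to 6 lower. Of 157 member differences recomputed, 143 kept direction and side of the threshold, 9 passed it (all with a knockout array left out) and 5 changed direction. Those that changed direction were Lum (-0.77 to 0.16), Dcn (-0.026 to 0.20) and Dpp4 (-0.24 to 0.077) over the settings that leave out an array, and Dpp4 with the mean of its probe sets (0.024). The values of opposite sign came without knockout replicate 2 for Lum and Dpp4, without wild-type replicate 2 for Dcn and without wild-type replicate 1 for Dpp4. Settings that changed only the filter, the variance model or the block returned the main difference, as did the fit of each probe set on its own. The other probe set settings changed it only for Dpp4, Fbln1 and Mfap5. Where it was returned, direction could not change, so the 143 are no measure of stability. Direction held in every setting for Twist2 (0.75 to 0.92), Clec3b (-1.23 to -0.67) and Fbln1 (0.38 to 1.02). It also held for Pdgfra (0.12 to 0.64), Dpt (-0.86 to -0.25), Mfap5 (-0.57 to -0.39) and Pi16 (-0.31 to -0.14). No setting read every further probe set by itself, and the third Fbln1 probe set was lower in the mean (-0.10). Pdgfra, Pi16 and Dpp4 were not tested under the 75th percentile filter, which they did not reach. The cause of these changes was not tested.

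With the replicate number as a block, 0 members passed, and the adjusted p was 0.249 for Twist2 and 0.256 for Clec3b. The labels do not say that a number marks a shared litter or day, and replicate 2 minus replicate 1 correlated at r = -0.09 between the genotypes across 11078 genes, which are not independent replicates.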

Other observations

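The wild-type arrays also differed in these genes. Across all tested genes, which are not independent replicates, the knockout pair correlated at r = 0.925 and the wild-type pair at r = 0.992. All 10 members were lower in wild-type replicate 2 than in wild-type replicate 1, by a median of 0.17, while 50.3% of all tested genes were. Of the 80 related genes on the array, 58 were lower in wild-type replicate 2 as well. The gap was smallest for Dpt (0.02) and largest for Fbln1 (0.37). The luminal epithelial genes had a median of -0.95 for wild-type replicate 2 minus replicate 1, the skeletal muscle genes 1.64 and the macrophage genes 0.24, and the part of these cells in the gap was not tested.

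The knockout arrays split the members evenly. Dpt, Lum, Clec3b, Dpp4 and Mfap5 were lower in knockout replicate 2 than in replicate 1, and Pdgfra, Fbln1, Pi16, Dcn and Twist2 were higher there, where 60.2% of all tested genes were lower in replicate 2. The median gap between arrays was 0.41 for members in the knockout pair and 0.17 in the wild-type pair, against 0.21 and 0.08 over all tested genes. Lum had the widest knockout gap, 0.94, and Dcn the narrowest, 0.02. Summed levels over the 10 genes, on a linear scale and set mainly by the brightest probe sets, were 16800 and 13310 in the knockout arrays and 18570 and 16770 in the wild-type arrays.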
